A study of Canis lupus familiaris with 17 samples.

Results

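CD4- monocytes are blood monocytes of the dog in which no molecule of CD4 was counted. They were chosen from the counts of unique molecular identifiers (UMIs) of single cell barcodes, which count RNA molecules. A barcode within the limits (200 to 4500 genes, 500 to 20000 UMIs and under 10% mitochondrial UMIs) was a member if it held at least 20 UMIs of LYZ, at least 5 of DLA-DRA, at most 2 of S100A12 and none of CD4, CD3E, MS4A1, FLT3 or CAMP, and if the interferon genes IFI44, IFI44L, ISG15, XAF1, IFIT1 and RSAD2 together held fewer than 6. Of 93013 barcodes, 84361 were within the limits and 6093 were members, 2177 from healthy dogs and 3916 from dogs with osteosarcoma (OS). These 14 genes therefore carried no finding of their own, and their levels are given as what the selection used.

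The leukocytes came from fresh blood of 7 healthy dogs and 10 dogs with OS, all labelled Wt, and each dog gave 1 library. Blood was layered on Ficoll Paque, red cells were lysed, and the cells were captured with the 10x Genomics 3' v3.1 chemistry. The OS dogs had a spontaneous primary tumor and no treatment before sampling, the healthy dogs were middle-aged, and some OS dogs were older, so OS and age cannot be fully told apart. Breeds and sexes were mixed in both groups.

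Monocytes are phagocytes that leave the bone marrow, circulate in blood and enter tissues, where they can become macrophages or antigen-presenting cells. They are rich in lysozyme (LYZ), carry MHC class II (DLA-DRA encodes the alpha chain of its DR molecule in the dog), and can secrete fibronectin (FN1) and other matrix proteins. In dogs, CD4 is present not only on helper T cells but also on neutrophils and on some monocytes, which allows monocytes to be divided by CD4.

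A matrix held 1332 to 7748 barcodes and 7740230 to 56510134 UMIs, and a dog contributed 66 to 975 members (median 330 in healthy and 331.5 in OS dogs) with 847773 to 12318462 UMIs between them. OS dog 3 gave the smallest library and the fewest members (66). Healthy dog 7 gave 91 members, and 32.5% of its barcodes within the limits were neutrophil-like (at least 10 UMIs of S100A12 and fewer than 5 of DLA-DRA), against at most 8.60% in the other dogs. Of 91883 barcode sequences, 1124 occurred in more than 1 matrix, and among members 4 of 6089 did. Doublet scores were high for 118 members.

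The conditions of the rule were met in steps. LYZ alone kept 15428 barcodes, and DLA-DRA left 14090. Of these, 19.3% held a UMI of FLT3, the receptor of dendritic cells and progenitors, 6.56% one of CD3E, 1.67% one of CAMP and 0.703% one of MS4A1. Without any of those 4 genes 10381 barcodes remained, the limit on interferon genes left 9034, and the limit on S100A12, an alarmin of neutrophils and inflammatory monocytes, left 6465 gated monocytes. CD4 was at 0 in 6093 of the gated monocytes (94.2%), at 1 UMI in 208 (3.22%) and at 3 or more in 107.

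The share of cells at 0 for CD4 moved with depth. CD4 was at 0 in 82.7% of gated monocytes with fewer than 8000 UMIs, in 93.4% of those with 8000 to 12000 and in 98.1% of those with 16000 or more. It also followed S100A12: with all other conditions kept, CD4 was at 0 in 94.2% of cells with at most 2 UMIs of S100A12, in 69.4% with 3 to 5, in 56.5% with 6 to 9 and in 40.7% with 10 or more. Median depth in these 4 ranges was 12320, 10066, 8861.5 and 8589.5 UMIs. A member held a median of 12458 UMIs and 3261 genes, 2.74% of them mitochondrial, and 325 further cells missed membership only through the upper limits (0.474 to 19.7% of the cells of a dog that met all else).

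Cells on both sides of each threshold were compared as a description. The 44 members with 20 to 24 UMIs of LYZ held a median of 4988 UMIs and 905 CPM of FN1 (CPM, UMIs of a gene per 1000000 UMIs of the cells summed), and the 57 cells just outside, with 15 to 19, held 4660 UMIs and 442 CPM of FN1. For DLA-DRA, the 49 members at 5 or 6 UMIs and the 32 cells at 3 or 4 held 911 and 855 CPM of FN1. The 208 cells with a single UMI of CD4 held 860 CPM of FN1, near the 937 CPM of members, but 112 CPM of HDAC9 against 277. At 2 UMIs of S100A12, inside the limit, 277 members held 81.6 CPM of HDAC9, and 205 cells at 3 UMIs held 96.6. The 217 members with 5 interferon UMIs and the 190 cells with 6 differed little in FN1 (988 and 1057 CPM). HDAC9 was therefore low on both sides of the S100A12 limit, and FN1 was similar on both sides of the CD4 limit.

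Levels below are CPM of the counts summed over the members of a dog, after scaling between dogs by the trimmed mean of M-values (TMM). Levels in T cells, neutrophil-like barcodes and CD4-expressing monocytes, and those of members set beside the last, are CPM without TMM. UMIs count molecules read from the 3' end. Whether introns were counted in these matrices is not known, and some entries may hold reads of neighboring genes. Levels of different genes can therefore be compared only roughly. T cells, taken as barcodes with at least 2 UMIs of CD3E, at most 2 of LYZ and none of MS4A1, FLT3 or CAMP, served as a background. Their levels hold RNA that is free in the droplets and RNA of their own. The limit on LYZ capped their LYZ level and left out barcodes with more LYZ, so the background of other monocyte genes may be too low. LYZ averaged 21742 CPM in members and 34.4 CPM in T cells, and DLA-DRA 3867 and 1167 CPM. These genes were part of the rule.

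FN1 (ENSCAFG00000014345), the third marker of the label, took no part in the rule. It reached 878 CPM in members (range over dogs 375 to 2011) and 9.84 CPM in T cells. Before any thinning 81.4% of members held a UMI of FN1. After each cell was thinned to 2000 UMIs, which left out up to 5 members of a dog, 59.3% of members and 1.6% of T cells did. FN1 thus set members apart from T cells without having been used to choose them.

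Other genes that the study lists for CD4- monocytes were also well above the T cells. BPI, a bactericidal protein that binds endotoxin, averaged 1109 CPM and was detected in 86.5% of thinned members and 0.603% of thinned T cells. LRMDA was at 2032 CPM (92.7 against 2.35% of cells), NRG1, a ligand of ERBB receptors, at 580.4 CPM (53.6 against 0.721%), and F13A1, the coagulation factor XIII A chain that crosslinks fibrin and fibronectin, at 536 CPM (50.1 against 0.544%). CCDC88A (573 CPM), an actin-binding protein of cell migration, RETN (365 CPM), the resistin gene, CD83 (576 CPM), a surface molecule of antigen-presenting cells, and MT2A (343 CPM), a metallothionein that binds zinc and copper, completed the list. The study chose this list on the same healthy dogs, so it is not independent evidence of identity. CCDC88A spanned 417 to 720.5 CPM over the dogs, while CD83 spanned 25.6 to 1994 CPM and MT2A 54.6 to 2263 CPM.

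**Figure D1:**
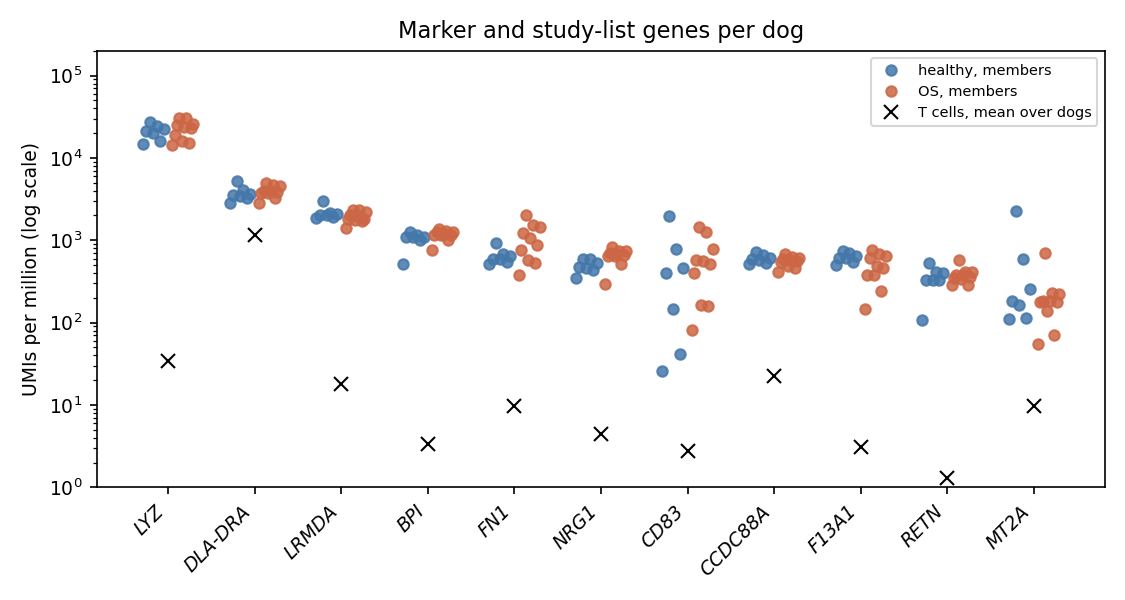
Levels of LYZ, DLA-DRA and the genes that the study lists for CD4- monocytes, in CPM on a log axis. Each point is the sum over the members of 1 dog (blue, 7 healthy; orange, 10 OS), and crosses give the mean of T cells over dogs; every point of FN1 and BPI lies above the T cell cross, and CD83 and MT2A are the most spread.

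The rest of the profile was that of a phagocyte. The 13 genes of the monocyte identity list that were tested and are not in the rule summed to 4298 to 7699 CPM per dog in members and 137 CPM in T cells. Among them were CTSS (1554 CPM), a lysosomal protease that processes antigens, the Fc receptor chain FCER1G (522 CPM), the oxidase subunit CYBB (520.0 CPM), SPI1 (361 CPM), the PU.1 master regulator of myeloid cells, and CSF1R (273 CPM), the receptor of macrophage colony-stimulating factor. CSF1R was detected in 42.6% of thinned members and 0.176% of thinned T cells. VCAN, the proteoglycan versican, stood at 1856 CPM, S100P at 1317 CPM, CYBA at 1390.5 CPM and the MHC class II chaperone CD74 at 3199 CPM. The tyrosine kinase SYK (497 CPM), the integrin ITGAM (321 CPM) and the complement receptor C5AR1 (553 CPM) were each at or below 73.5 CPM in T cells.

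Among the 20 most abundant genes other than ribosomal and mitochondrial ones were LYZ, the intermediate filament gene VIM (11881 CPM), ARHGAP45 (9316 CPM, against 51.6 in T cells), B2M (8939 CPM), the iron store subunit FTH1 (7222 CPM), TPT1 (7162 CPM), DPYD (3798 CPM, against 54.4 in T cells), which degrades pyrimidines, DLA-64 (3536 CPM), the transcriptional repressor ZEB2 (3261 CPM) and CRIP1 (3058 CPM). ARHGAP45 and DPYD separated members from T cells by a wide margin, whereas B2M (11944 CPM in T cells), TPT1 (6677) and DLA-64 (3932) were of a similar or higher level there. Some abundant entries were of uncertain origin. CD79A, a B cell gene, stood at 3563 CPM in members and at 8373 CPM in T cells and lies beside the ribosomal gene RPS19 in the RefSeq annotation. TFPT (4588 CPM in members and 2678 in T cells) lies beside NDUFA3 and PRPF31, and S100A5 (2135 and 1381 CPM) beside S100A6 and S100A4. Whether these counts include reads of the neighbors was not tested.

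Markers of other cells were mostly low in members. The T and NK cell list summed to 25.1 to 58.7 CPM in healthy and 15.2 to 58.1 CPM in OS dogs, against 3999 CPM in T cells, and its highest gene was CD2 (20.6 CPM). The B and plasma cell list summed to 2523 to 5274 and 2598 to 5580 CPM, nearly all of it CD79A and BANK1, while PAX5 (2.11 CPM) and IGHM were near 0. BANK1, a scaffold of B cell receptor signaling, was at 502 CPM in members and at 11.3 CPM in T cells. The erythroid list stayed at or under 11.9 CPM in every dog with SLC4A1 and CA1 at 0, and the platelet list summed to 158 to 251 CPM in healthy and 159.5 to 333 CPM in OS dogs, most of it RGS18 (175 CPM), which leukocytes also express. The cell cycle list summed to 13.7 to 22.9 and 13.5 to 23.6 CPM.

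The dendritic list summed to 171 to 341 CPM in healthy and 182 to 272 CPM in OS dogs, led by TCF4 (109 CPM) and BATF3 (46.9 CPM), with XCR1 at 0. The neutrophil list summed to 2194 to 4463 and 2738 to 4725 CPM, of which S100A8 (2168 CPM), GGH (844 CPM) and SERPINA1 (658 CPM) made up nearly all, and S100A8 stood at 1802 CPM in T cells and at 37496 CPM in neutrophil-like barcodes. LTF, the granule protein lactoferrin, was at 32.9 CPM in members and at 4053 CPM in neutrophil-like barcodes, and PGLYRP1 was at 0.334 and 2258 CPM. The eosinophil and basophil list summed to 436 to 918 and 478 to 1136 CPM with HDC at 0. It was carried by C30H15orf48 (396 CPM), PADI3 (176 CPM, against 1541 in neutrophil-like barcodes) and MS4A2 (87.3 CPM, against 0.358 in T cells), the beta chain of the high affinity IgE receptor.

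Members were not uniform. Principal components of 1000 variable genes, without the genes of the rule and with each dog centered, gave a first component with 2.25% of the variance and a second with 1.36%. The second component, described after its genes had been seen, ran from HDAC9, a class II histone deacetylase, SPECC1, CAMK1D, S100A5, the integrin ITGA4, NFATC2, LMNA and MGLL at one end to PLBD1, HMGB2, SOD2, CHST11, LTF, C5AR1, BLOC1S6, RGS2 and C30H15orf48 at the other. FN1, VCAN and BANK1 followed among the first 15 genes at the latter end. The first component ran from PLCB1, TRPS1, MCTP1, RBM47, NAMPT, BANK1, VCAN and SSH2 to LGALS1, S100A5, MT2A and OAS1.

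These axes recurred in components made from 1 dog at a time, which is a description, since all cells had entered the common axes. For each dog the best match among its leading components was taken, with the sign of r dropped, so r could not be negative. The loadings of this best matching component of a dog correlated with those of the first axis at r = 0.504 to 0.910 and with those of the second at r = 0.404 to 0.911 over the 1000 genes, which share the depth and library of their cells. Within a dog the score of a member correlated with its log UMI count at r = -0.014 to 0.559 for the first axis (median 0.222) and at r = -0.114 to 0.468 for the second (median 0.303), over 66 to 975 cells. Depth therefore moved with both axes, and its part in them was not tested.

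Monocytes that meet the same conditions but hold a UMI of CD4 are called CD4-expressing here. In B-like barcodes (at least 2 UMIs of MS4A1, none of CD3E and at most 2 of LYZ), which should lack CD4, 1.13% of 1148 held a UMI of CD4 at a median of 5046.5 UMIs, against 5.75% of the gated monocytes at 12320 UMIs. Between 8000 and 12000 UMIs these shares were 1.39% of 72 and 6.60% of 2288. A single UMI of CD4 was held by 0.958% of B-like barcodes and 3.22% of gated monocytes, and the part of free RNA in the class was not tested. With S100A12 at most 2 there were 372 such cells, and 6 dogs (3 healthy, 3 OS) had at least 25. With S100A12 free there were 1626 cells in all, and 16 dogs (7 healthy, 9 OS) had at least 25. The rule divides these cells by CD4, and with S100A12 free also by S100A12, since 1254 of the 1626 cells held more than 2 UMIs of it (17.9 CPM in members and 1594 CPM in CD4-expressing monocytes). With S100A12 at most 2 the classes still differed in it, at 16.8 CPM in members and 61.4 CPM in CD4-expressing monocytes, lower in members in 6 of 6 dogs. Differences between the classes are therefore a description without a test. In neither comparison can the parts of CD4 and of S100A12 be told apart. With S100A12 free, 481 of 5755 genes at 20 CPM or more were higher in members in every dog (8.36%) and 672 were lower in every dog (11.7%), with a median log2 difference of -0.08 over those genes. With S100A12 at most 2, 386 of 5728 were higher (6.74%) and 595 lower (10.4%), with a median of -0.06. Members were deeper in UMIs in all dogs but OS dog 2, with medians per dog of 10124.5 to 15894, against 6774.5 to 12957.5 in CD4-expressing monocytes with S100A12 at most 2.

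FN1, CD83 and LRMDA were at similar levels in CD4-expressing monocytes. FN1 averaged 893 ± 425 CPM (SD over 16 dogs) in members and 936 ± 435 CPM in CD4-expressing monocytes of any S100A12 and was higher in members in 7 of 16 dogs. CD83 differed by 0.13 on the log2 scale and LRMDA by -0.09. BPI was higher in members by 0.63 (SD 0.21), F13A1 by 0.76 (SD 0.41) and CCDC88A by 0.39 (SD 0.21), each in 16 of 16 dogs. When S100A12 was at most 2 in both classes, BPI differed by 0.22, F13A1 by 0.48 and CCDC88A by 0.11, each higher in members in 5 of 6 dogs. FN1, the marker in the label, did not separate the classes in either comparison (higher in members in 4 of 6 dogs with S100A12 at most 2).

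HDAC9 was among the genes with the largest differences. It averaged 287 ± 159 CPM in members and 54.1 ± 38.3 CPM in CD4-expressing monocytes, a difference of 2.60 on the log2 scale with a range over dogs of 1.49 to 5.99. With S100A12 at most 2 in both classes the difference was 1.69 (range 0.76 to 2.59 over 6 dogs), and with cells thinned to 2000 UMIs it was 3.02 with S100A12 free and 2.90 with S100A12 at most 2, where the thinned CD4-expressing monocytes held 129 and 29 UMIs of HDAC9. After thinning, HDAC9 was detected in 27.3% of members and 5.17% of CD4-expressing monocytes. In every dog compared HDAC9 was the higher in members, and it was also the leading gene at its end of the second axis among the members themselves.

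Other genes higher in members in all 16 dogs were MT2A (348 ± 531 against 121 ± 298 CPM, log2 difference 2.64), its relative MT1E (2.27), MEIS1 (32.3 ± 9.73 against 6.89 ± 6 CPM, 2.60), a homeobox factor of blood progenitors, SPECC1 (164 ± 48.5 against 40.3 ± 21.4 CPM, 2.12), the nuclear lamin LMNA (1.79), ARHGAP6 (2.66), LMO1 (2.34) and SYNE2 (2.19), which anchors the nucleus. SPECC1 differed by 0.98 and LMO1 by 1.29 when S100A12 was at most 2 in both classes, and SYNE2 was then higher in 5 of 6 dogs. MT2A and MT1E had SDs over dogs larger than their means, and healthy dog 6 was far above the rest. With S100A12 at most 2 the named genes with the largest differences among those higher in all 6 dogs were GPR183 (2.28), a receptor for oxysterols, ARHGAP6 (2.12), SMAD3 (2.12), a transducer of TGF-beta signals, MT2A (2.04), MT1E (1.98), MEIS1 (1.71), HDAC9, CPQ (1.59) and LMNA (1.55). Several of these rested on few molecules in the CD4-expressing class, with 13 UMIs of SMAD3, 15 of GPR183 and 18 of ARHGAP6. After thinning to 2000 UMIs, GPR183, ARHGAP6, SMAD3 and CPQ were higher in members in 5 of 6 dogs, and LMNA differed by 0.78 and was higher in 4. With S100A12 free and cells thinned, MT1E was higher in 14 and LMNA in 15 of 16 dogs. GPR183 and SMAD3 were higher in T cells (102 and 100.2 CPM) than in members (18.9 and 21.6 CPM). The T cell marker CD2 was at 20.6 CPM in members and 7.02 CPM in CD4-expressing monocytes of any S100A12. IL7R (963 CPM in T cells) and CCL5 (758 CPM) went the other way. They were at 2.13 and 2.02 CPM in members and at 2.93 and 7.91 CPM in CD4-expressing monocytes of any S100A12. The part of T cell RNA in the differences between the classes was not tested.

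Of the genes lower in members, LTF averaged 33.4 ± 17.3 CPM in members and 887 ± 284 CPM in CD4-expressing monocytes of any S100A12 (log2 difference -4.81), and with S100A12 at most 2 it was 35.2 ± 19.2 against 319 ± 172 CPM (-3.23). ALOX5, the 5-lipoxygenase of leukotriene synthesis, differed by -3.76 and -2.50, the receptor CLEC5A by -2.57 and -1.64, and THBS1, the matrix protein thrombospondin-1, by -2.91 and -1.60. CYP4F22 differed by -5.07 and -2.01, ADGRE3 by -3.72 and -1.44, STEAP4 by -2.82 and -1.43 and GALNT17 by -2.80 and -2.07. With S100A12 at most 2, ADGRE3 and STEAP4 rested on 11 and 31 UMIs in the CD4-expressing class and were lower in members in 5 of 6 dogs, and after thinning STEAP4 turned to 0.43, on 5 UMIs. IL1B was 303 ± 350.5 CPM in members and 1229 ± 1121 CPM in CD4-expressing monocytes (-2.57, and -1.43 with S100A12 at most 2), and S100A8 was 2148 ± 508 and 3149 ± 599 CPM (-0.57). S100A8 differed by 0.09 when S100A12 was at most 2 in both classes, so the 2 comparisons of S100A8 had opposite signs. LTF and CLEC5A were highest in neutrophil-like barcodes (4053 and 596 CPM), and the part of neutrophil RNA in the differences was not tested.

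**Figure D2:**
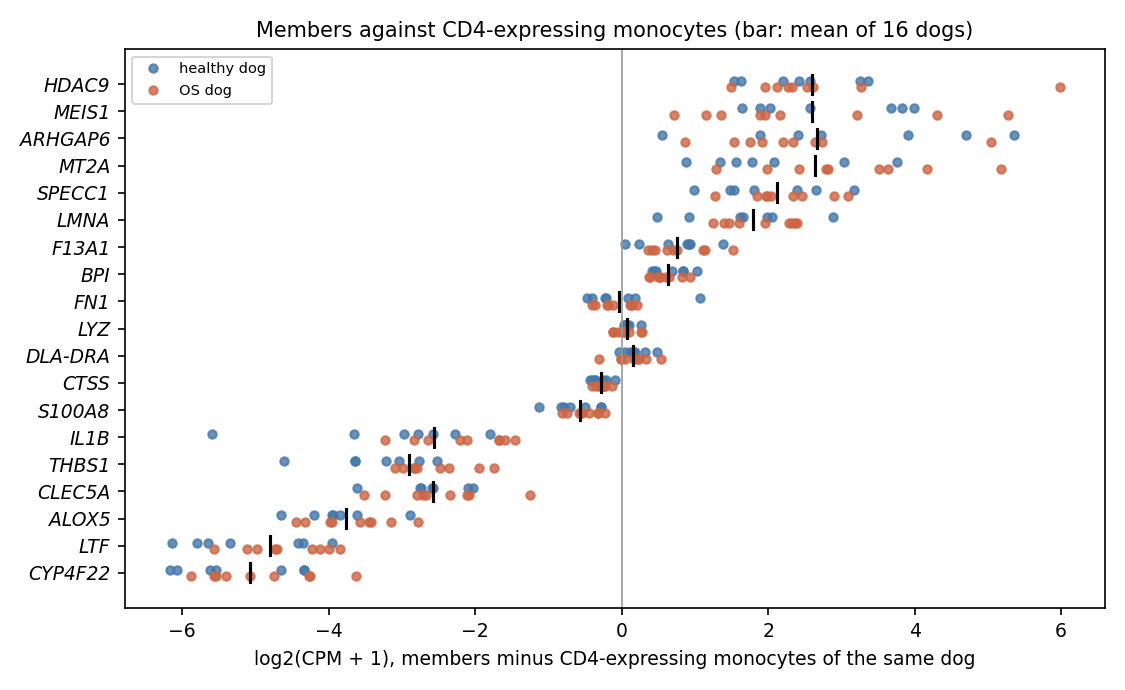
Difference in log2(CPM + 1) between members and CD4-expressing monocytes of any S100A12, with 1 point per dog (blue, 7 healthy; orange, 9 OS) and a bar at the mean of 16 dogs. HDAC9 and MT2A lie right of 0 in every dog, LTF and THBS1 lie left of 0 in every dog, and FN1 lies on both sides.

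Both axes among members shared genes with the difference between classes of any S100A12, in which 8.36% of all genes were higher and 11.7% lower in members in every dog. Of the first 15 genes at the HDAC9 end of the second axis, 15 were higher in members in 16 of 16 dogs, and of the first 15 at the PLBD1 end 14 were lower in 16 of 16, FN1 being the exception with 7 dogs higher and 9 lower. On the first axis, 11 of 15 genes at the PLCB1 end were lower in 16 of 16 dogs, among them TRPS1, MCTP1, NAMPT, BANK1 and VCAN, and 9 of 15 at the LGALS1 end were higher, among them S100A5, MT2A and LMNA. The axes and the classes came from the same matrices, and the first 15 genes at an end were a choice without a test.

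The study asked whether OS alters the abundance and expression of circulating leukocytes. Members made up 1.91 to 10.6% of the barcodes within the limits in healthy dogs (median 5.47%, mean 6.16 ± 2.77 (SD, n = 7)) and 2.51 to 17.7% in OS dogs (median 6.94%, mean 7.83 ± 4.65 (SD, n = 10)). The lowest and the highest share had 95% Clopper-Pearson intervals of 1.54 to 2.34% and 16.7 to 18.8%, which cover counting error only. The groups overlapped widely, the means differed by 1.68 percentage points, and no difference in ranks was detected (p = 0.536 by an exact rank-sum test, two-sided). Leaving out 1 dog at a time gave differences from 0.579 points without OS dog 5 and 0.969 without healthy dog 7, the neutrophil-rich library, to 2.42 without healthy dog 6 (exact p of 0.351 to 0.875). OS dogs 5, 6 and 7 had the 3 largest shares and OS dogs 2 and 4 were among the smallest, so the OS group was the wider of the pair.

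Members were 89.9 to 96.8% of the gated monocytes in healthy dogs (median 93.5%) and 86.8 to 97.6% in OS dogs (median 95.4%), a difference of 0.966 points in the means (p = 0.417 by the same exact test). Leaving out 1 dog at a time gave 0.391 points (without healthy dog 2) to 1.80 (without OS dog 3) and exact p of 0.210 to 0.635. After gated cells were thinned to 4000 UMIs, the means were 95.9 and 96.5% (exact p = 0.364). Without a limit on S100A12 they were 78.7 and 81.7% (exact p = 0.270). A difference in the share without CD4 was thus not detected at a common depth or with a wider gate.

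**Figure D3:**
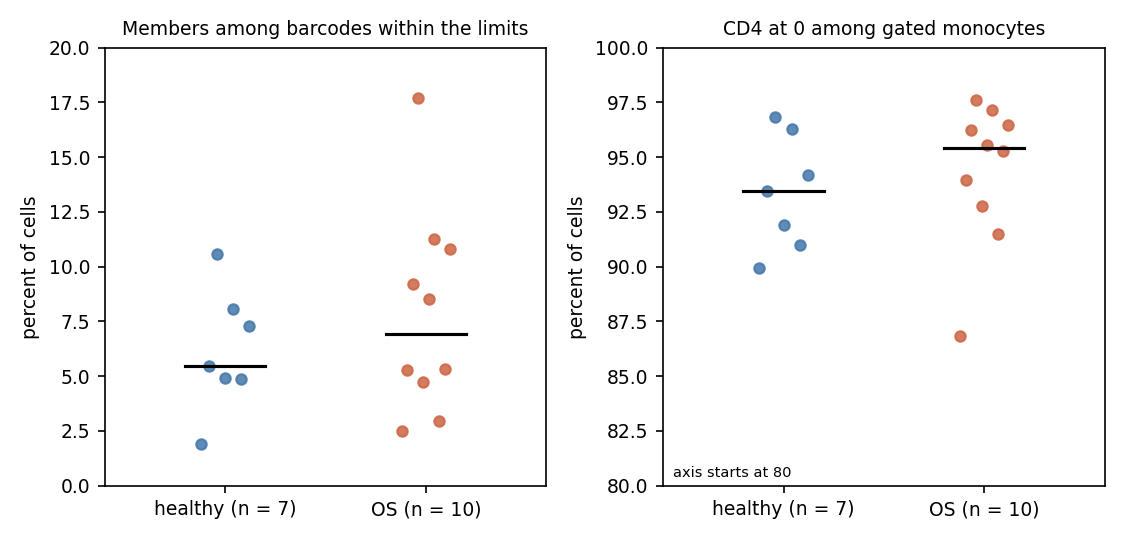
Left, members as a percentage of the barcodes within the limits; right, cells with CD4 at 0 as a percentage of the gated monocytes, on an axis that starts at 80. Each point is 1 dog (7 healthy, 10 OS) and bars are medians; the groups overlap in both panels.

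Expression was compared between OS and healthy dogs on counts summed over the members of each dog. Of 12964 genes, 0 (0%) were called by edgeR's quasi-likelihood test at an adjusted p under 0.01 and an absolute log2 fold change over 0.58, and the smallest adjusted p was 0.155. It was 0.0194 without healthy dog 4 and 0.0329 without healthy dog 5 in edgeR, with 2 and 1 genes under 0.05, and 0.0219 in DESeq2, with 1. At an unadjusted p under 0.05 there were 812 genes, 414 higher in OS (3.19%) and 398 lower (3.07%), and DESeq2 gave 0 called genes and 797 at an unadjusted p under 0.05. The genes below are those with the smallest unadjusted p at a mean of 10 CPM or more or members of fixed lists, and none passed the test. Counts of OS dogs above or below the healthy median follow in part from this choice by p. The share of all genes with such counts was not determined. The 2 entries with the smallest p of all, MSANTD3-TMEFF1 and CAVIN4, were lower in OS (log2 fold changes -4.39 and -4.37, adjusted p = 0.155 for both in edgeR) but averaged 0.578 and 0.362 CPM.

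KLF12, a transcriptional repressor of the Kruppel-like family, ranged from 20.1 to 62.4 CPM in healthy dogs (median 32.3) and from 10.1 to 21.8 CPM in OS dogs (median 15.7). All 10 OS dogs lay below the healthy median and 7 lay below every healthy dog, and the log2 fold change was -1.16 ± 0.22 (SE) (unadjusted p = 3.58e-05, adjusted p = 0.155 in edgeR). KLF12 is abundant in T cells (756 CPM), whose marker list summed in members to 25.1 to 58.7 CPM in healthy and 15.2 to 58.1 CPM in OS dogs, and the part of T cell RNA in this difference was not tested. ADGRG6, an adhesion receptor that is rare in T cells (0.337 CPM), ranged from 18.4 to 35.4 CPM in healthy dogs (median 29.8) and from 4.18 to 23.3 CPM in OS dogs (median 12). Healthy dog 7 (18.4 CPM) was the 1 healthy dog within the range of OS dogs for ADGRG6, and the fold change was -1.17 ± 0.26 (SE) (unadjusted p = 0.000177, adjusted p = 0.555).

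Further genes lower in OS dogs were the mineralocorticoid receptor NR3C2 (log2 fold change -0.63 ± 0.16 (SE)), with medians of 85.4 CPM in healthy and 53.1 CPM in OS dogs, PPFIBP2 (-0.45 ± 0.11 (SE)), with medians of 91.7 CPM in healthy and 64.5 CPM in OS dogs, the proton channel HVCN1 (-0.38 ± 0.11 (SE)), with medians of 89.7 CPM in healthy and 66.9 CPM in OS dogs, CMSS1 (-0.80), PPTC7 (-0.57), RPS27AP5 (-1.26), MAGI3 (-0.76) and TMEM135 (-0.43). In NR3C2, PPFIBP2, HVCN1, CMSS1, PPTC7 and RPS27AP5 all 10 OS dogs lay below the healthy median. Of these 8 genes, 6 were higher in T cells than in members: CMSS1 (102 against 11.3 CPM), MAGI3 (211 against 15.4), NR3C2 (143 against 63.8), PPTC7 (23.4 against 12.2), RPS27AP5 (22.8 against 12.6) and TMEM135 (76.8 against 53.1). The part of T cell RNA in them was not tested. PPFIBP2 and HVCN1 were at 1.12 and 8.02 CPM in T cells. HVCN1 was at 351 CPM in neutrophil-like barcodes, against 77.9 CPM in members. Among the dogs it was highest in healthy dog 7 (123 CPM), the neutrophil-rich library, and the part of neutrophil RNA in it was not tested. The unadjusted p of these 8 genes ran from 0.000214 to 0.00354, with adjusted p of 0.555 for CMSS1 and 0.716 for the others.

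PIK3R6 was the 1 gene of 12964 (0.00771%) in which the groups did not overlap, and it was named after its values had been seen. It averaged 22.2 ± 1.88 CPM (SD) in healthy and 11.9 ± 6.34 CPM in OS dogs (log2 fold change -0.87 ± 0.28 (SE), adjusted p = 0.716). It encodes a regulatory subunit of phosphoinositide 3-kinase gamma, a kinase of leukocyte migration. No gene was separated with OS higher (0%).

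Genes with the smallest p and higher levels in OS dogs were led by CTSH, a lysosomal aminopeptidase, which ranged from 131 to 231 CPM in healthy dogs (median 167) and from 163 to 365 CPM in OS dogs (median 282). Its ranges overlapped and 9 of 10 OS dogs were above the healthy median (log2 fold change 0.65 ± 0.17 (SE), unadjusted p = 0.000917, adjusted p = 0.716). PLIN2, the coat protein of lipid droplets, ranged from 93.1 to 193 CPM in healthy dogs (median 117) and from 109 to 549 CPM in OS dogs (median 256) (log2 fold change 1.03 ± 0.28 (SE), unadjusted p = 0.00151). CPT1A, which admits long fatty acids to mitochondria, ranged from 31 to 57.1 CPM in healthy dogs (median 49) and from 37.9 to 131 CPM in OS dogs (median 77.6) (log2 fold change 0.70 ± 0.21 (SE), unadjusted p = 0.00284). For both genes 8 of 10 OS dogs exceeded the healthy median, and some OS dogs lay within the healthy range.

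CLEC4D, a C-type lectin that recognizes mycobacterial glycolipids, had medians of 10.2 CPM in healthy and 23.7 CPM in OS dogs (log2 fold change 1.25 ± 0.34 (SE)), MCEMP1, a membrane protein of myeloid cells, medians of 7.61 CPM in healthy and 13.5 CPM in OS dogs (1.07 ± 0.28 (SE)), and TXNIP, an inhibitor of thioredoxin and of glucose uptake, medians of 68.8 CPM in healthy and 116 CPM in OS dogs (0.73 ± 0.21 (SE)). BCL2A1, an NF-kB-induced survival factor, ranged from 390.4 to 901 CPM in healthy dogs (median 540.0) and from 533 to 1121 CPM in OS dogs (median 870.4) (0.62 ± 0.19 (SE)). KCNE3 (0.52), CALR (0.61), the calcium-binding chaperone of the endoplasmic reticulum, and RNFT1 (0.51) completed the 10 genes. In MCEMP1, TXNIP, KCNE3 and RNFT1 all 10 OS dogs were above the healthy median, and the adjusted p of each of the 10 was 0.716. CLEC4D and KCNE3 were higher in neutrophil-like barcodes (52.5 and 31.9 CPM) than in members (18.2 and 21.8 CPM). CTSH, CPT1A, MCEMP1, BCL2A1 and CALR were lower there than in members. The part of neutrophil RNA in these genes was not tested.

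**Figure D4:**
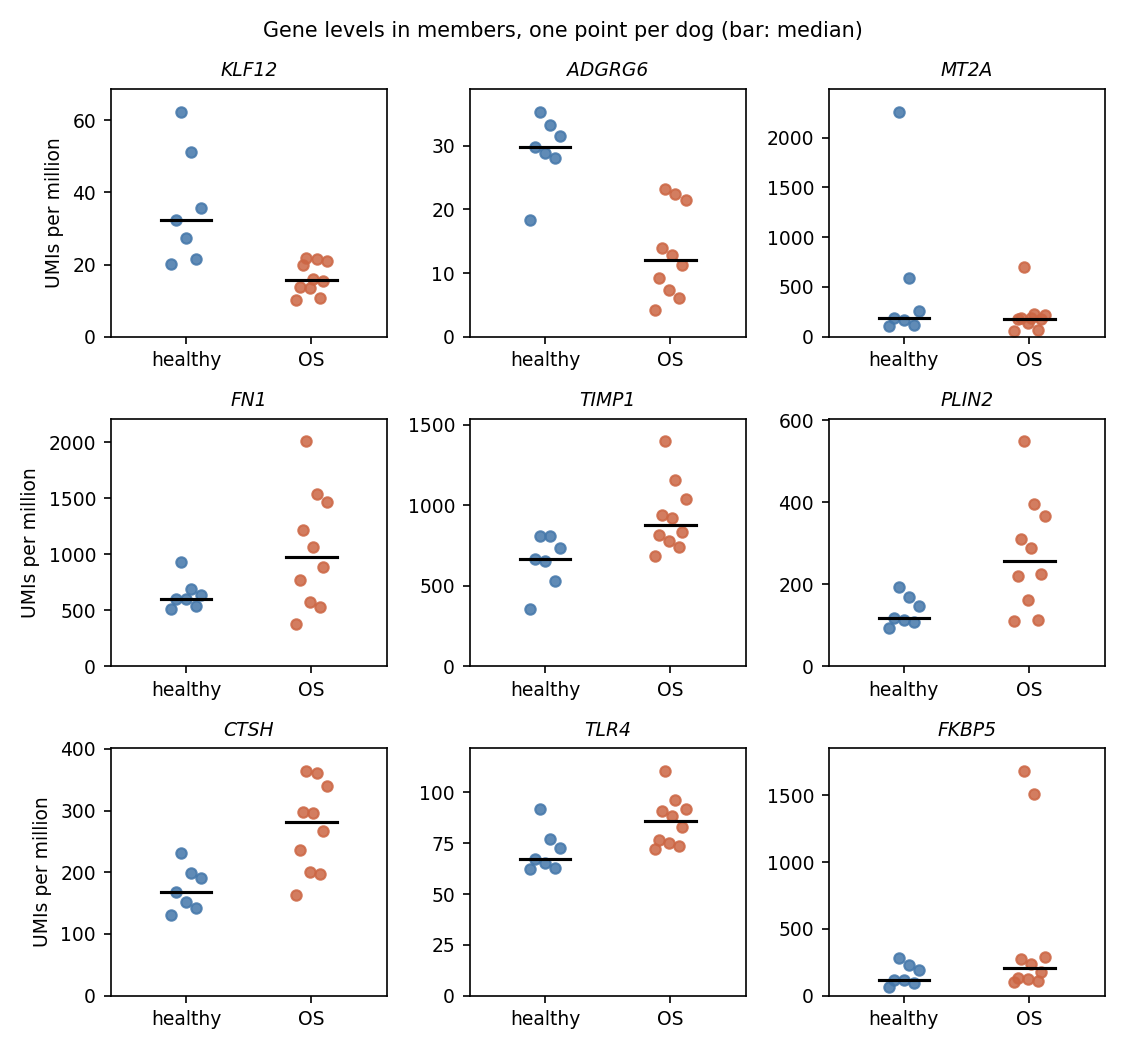
Levels of 9 genes in members, in CPM, with 1 point per dog and bars at the medians (7 healthy, 10 OS; each axis starts at 0). KLF12 and ADGRG6 are mostly lower in OS dogs, TIMP1, CTSH and TLR4 mostly higher with overlap, and single dogs carry the high values of MT2A and FKBP5.

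The matrix and wound repair list held 28 tested genes, of which 5 were higher and 1 lower in OS at an unadjusted p under 0.05, with a median log2 fold change of 0.14 against 0.0038 for all genes outside the rule, of which 6574 of 12956 were above 0. FN1 ranged from 509 to 929 CPM in healthy dogs (median 597) and from 375 to 2011 CPM in OS dogs (median 976), and its log2 fold change was 0.70 ± 0.27 (SE) (unadjusted p = 0.0176, adjusted p = 0.716). The OS dogs extended to both sides of the healthy range, with OS dog 6 highest at 2011 CPM and OS dog 3 lowest at 375 CPM, and leaving out 1 dog at a time gave 0.56 (without OS dog 6) to 0.82 (without healthy dog 5). TIMP1, an inhibitor of matrix metalloproteinases, ranged from 354 to 809.6 CPM in healthy dogs (median 664) and from 683 to 1399 CPM in OS dogs (median 877), and all 10 OS dogs were above the healthy median (log2 fold change 0.52 ± 0.17 (SE), unadjusted p = 0.00675).

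NRG1 ranged from 351 to 593 CPM in healthy dogs (median 470.1) and from 290.4 to 820.5 CPM in OS dogs (median 678) (log2 fold change 0.40 ± 0.17 (SE), unadjusted p = 0.0260), with 9 of 10 OS dogs above the healthy median. THBS1 (0.86) and the metalloproteinase MMP19 (0.56) were the other genes of the list with higher levels in OS at that p, and TGFBI (-0.22 ± 0.10 (SE)), an extracellular protein that binds integrins, was the 1 with lower levels. VCAN, the most abundant gene of the list, differed by 0.24 (unadjusted p = 0.153) and F13A1 by -0.38 (unadjusted p = 0.126). The list thus held values on both sides of 0, 18 above and 10 below.

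For antigen presentation, of 14 tested genes of the MHC class II list, 0 were at an unadjusted p under 0.05 in either direction, 5 fold changes were above 0 and 9 below, and the median was -0.09. CD74 ranged from 1254 to 6336 CPM in healthy dogs (median 2096) and from 1246 to 6348 CPM in OS dogs (median 3093) (log2 fold change 0.45 ± 0.33 (SE), unadjusted p = 0.186), HLA-DQB2 differed by 0.21 ± 0.15 (SE), and the costimulatory molecule CD86 by -0.24. Healthy dog 1 alone reached the level of the highest OS dogs in CD74, and 8 of 10 OS dogs were above the healthy median.

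Receptors that sense microbes were compared with 24 tested genes, of which 3 were higher and 0 lower in OS at an unadjusted p under 0.05 (median log2 fold change 0.07). TREM1, which amplifies inflammatory signals, ranged from 129.5 to 356 CPM in healthy dogs (median 236) and from 262 to 382 CPM in OS dogs (median 344) (log2 fold change 0.44 ± 0.16 (SE), unadjusted p = 0.0124). TLR4, the receptor of endotoxin, ranged from 62.2 to 92 CPM in healthy dogs (median 67.1) and from 72.2 to 111 CPM in OS dogs (median 85.8) (log2 fold change 0.28 ± 0.11 (SE), unadjusted p = 0.0187). In both genes all 10 OS dogs were above the healthy median, and 5 of them for TREM1 and 3 for TLR4 were above every healthy dog. CLEC4E, a partner of CLEC4D, differed by 0.66 ± 0.27 (SE). In the antimicrobial list 2 of 12 genes were higher in OS at that p, S100P (0.33 ± 0.15 (SE)) and PGLYRP1 (2.45 at a mean of 0.334 CPM), while BPI (0.17 ± 0.15 (SE)), RETN (0.13 ± 0.21 (SE)) and S100A8 (0.03 ± 0.20 (SE)) were within their errors of 0 or near it.

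Stress and hormone responses came next. In the glucocorticoid response list, 4 of 15 tested genes were higher and 0 lower in OS at an unadjusted p under 0.05, 13 fold changes were above 0, and the median was 0.56. FKBP5, a chaperone induced through the glucocorticoid receptor, ranged from 64.6 to 278 CPM in healthy dogs (median 119.8) and from 101 to 1686 CPM in OS dogs (median 209.8) (log2 fold change 1.57 ± 0.60 (SE), unadjusted p = 0.0164). OS dogs 3 and 9 stood at 1513 and 1686 CPM and no other dog was above 292 CPM, and the fold change was 1.16 without OS dog 3 and 1.07 without OS dog 9. The clock gene PER1 differed by 1.45 ± 0.60 (SE), NFIL3 by 0.65 ± 0.25 (SE) and TXNIP by 0.73 ± 0.21 (SE), whereas the scavenger receptor CD163, also of this list, differed by 0.00. The immediate early and heat shock list had 4 of 26 genes higher and 0 lower (median 0.32), with HSPA8 (0.37 ± 0.14 (SE)), HSPB1 (0.44 ± 0.16 (SE)), EGR2 (2.05 at 3.24 CPM) and IER5 (0.92 at 1.79 CPM).

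The interferon list, made only of genes outside the rule, had 3 of 20 genes higher and 0 lower at an unadjusted p under 0.05, and all 20 fold changes were above 0 (median 0.39), against 6574 of 12956 over all genes outside the rule. These genes were read in the same dogs and can vary together, so the 20 signs are not independent. Their summed level overlapped, at 641 to 1459 CPM in healthy dogs (median 883) and 634 to 1716 CPM in OS dogs (median 1207). Cells with 6 or more UMIs of the interferon genes of the rule had been left out, which truncates this comparison. OAS1, which senses double-stranded RNA, ranged from 10.9 to 108 CPM in healthy dogs (median 25.8) and from 8.35 to 177 CPM in OS dogs (median 73.8) (log2 fold change 1.20 ± 0.46 (SE), unadjusted p = 0.0164). OAS3 (0.85 ± 0.32 (SE)) and HERC6 (0.46 ± 0.21 (SE)) were the other genes, and MX2, the most abundant of the list, differed by 0.37 ± 0.19 (SE) (unadjusted p = 0.0623). OAS1 was at 15.6 CPM in T cells.

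The metallothionein list had 3 of 6 tested genes lower in OS at an unadjusted p under 0.05, MT2A, MT1E and the zinc transporter SLC39A14 (1.38 CPM), and a median of -0.82. MT2A ranged from 111 to 2263 CPM in healthy dogs (median 184) and from 54.6 to 702 CPM in OS dogs (median 182) (log2 fold change -1.30 ± 0.57 (SE), unadjusted p = 0.0340), although the medians of the groups were nearly equal. Healthy dog 6 alone stood at 2263 CPM, and without it the fold change was -0.15. MT1E ranged from 16.2 to 388 CPM in healthy dogs (median 27.3) and from 3.08 to 66.3 CPM in OS dogs (median 24.6) (log2 fold change -1.84 ± 0.59 (SE)), and without healthy dog 6, at 388 CPM, it was -0.60. The lower values in OS thus rested largely on 1 healthy dog.

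Among metabolic lists, of 18 genes of lipid and iron handling 2 were higher in OS at an unadjusted p under 0.05, PLIN2 and the biliverdin reductase BLVRB (0.48 ± 0.20 (SE)), and 0 were lower (median 0.10), while HMOX1 (0.09) and the cholesterol exporter ABCA1 (-0.12) were near 0. Of 18 glycolysis genes 4 were higher and 0 lower (median 0.19), PDK4 (2.06 at 14.4 CPM), PFKP (0.30 ± 0.13 (SE)), GPI (0.46 ± 0.20 (SE)) and the lactate exporter SLC16A3 (0.95 at 5.08 CPM). PDK4, which diverts pyruvate from oxidation, had medians of 2.32 CPM in healthy and 13.1 CPM in OS dogs. GAPDH, the most abundant glycolysis gene, differed by 0.34 ± 0.17 (SE) (unadjusted p = 0.0641).

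Adhesion genes had 3 of 20 higher and 0 lower (median 0.12), the sphingosine phosphate receptors S1PR1 (0.52 ± 0.18 (SE)) and S1PR4 (2.29 at 1.1 CPM) and the integrin ITGB7 (0.58 ± 0.22 (SE)), whereas ITGAM (-0.12) differed little. Among 31 growth factor receptors and transcription factors 0 were higher and 2 lower (median -0.03), BACH2 (-1.41 ± 0.46 (SE)), a repressor that is much higher in T cells (585 against 29.2 CPM), and TCF4 (-0.28 ± 0.13 (SE)). ZEB2 and RUNX1 each differed by under 0.1 on the log2 scale. In the identity list FN1 and CD68 were the 2 of 13 genes with a higher level at that p (median 0.10), and CD68, a lysosomal membrane protein of macrophages, ranged from 3.97 to 34.2 CPM in healthy dogs (median 22.8) and from 6.26 to 101 CPM in OS dogs (median 57.4) (log2 fold change 1.37 ± 0.48 (SE), unadjusted p = 0.00988). CD68 was at 94.2 CPM in neutrophil-like barcodes and 40.1 CPM in members, and the part of neutrophil RNA in it was not tested.

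Markers of other cells were tested in the same fit. The T and NK list had 0 of 13 genes at an unadjusted p under 0.05 (median 0.04), the cell cycle list 0 of 7 and the eosinophil and basophil list 0 of 7. The B cell list had 2 of 10 genes lower in OS, BANK1 and PAX5 (median -0.49). BANK1 ranged from 479 to 948 CPM in healthy dogs (median 542) and from 345 to 656 CPM in OS dogs (median 395) (log2 fold change -0.44 ± 0.16 (SE)), and 8 of 10 OS dogs lay below every healthy dog. The neutrophil list had 3 of 7 genes higher and 0 lower (median 0.48), SERPINA1 (0.48 ± 0.17 (SE)), the retinoic acid synthase ALDH1A2 (1.19 ± 0.44 (SE); 555 CPM in neutrophil-like barcodes) and PGLYRP1, with LTF at 0.56 (unadjusted p = 0.115). The platelet list had 4 of 9 higher, MYL9, GP1BB, GP6 and ITGB3, each under 10 CPM (median 0.94). The dendritic list had 0 of 11 genes higher and 1 lower, TCF4 (median -0.16), and the erythroid list 1 of 3 higher, the globin HBM, and 0 lower (median 1.39). HBM had a log2 fold change of 4.04 but was at 9.79 CPM in OS dog 1 and had a median of 0 in both groups. Of the abundant genes of these lists, SERPINA1 had 9 of 10 OS dogs above the healthy median, while S100A8 differed by 0.03 (unadjusted p = 0.890), GGH by 0.16 (unadjusted p = 0.250) and RGS18 by 0.05 (unadjusted p = 0.757). The part of neutrophil and platelet RNA in the other differences was not tested.

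The spread between dogs was described apart from the groups. The 10 genes with the largest SD of log2 CPM over the 17 dogs, at 50 CPM or more, included CCL4 (SD 3.40), CCL3 (2.83), PTGS2 (2.68), IL1B (2.67), CXCL8 (2.62), SERPINB2 (2.60) and IL1A (2.35), and 3 entries known only by an identifier. CCL3 and CCL4 are chemokines that attract monocytes and T cells, CXCL8 attracts neutrophils, PTGS2 makes prostaglandins, and IL1A and IL1B are interleukin-1. CXCL8 ranged from 14.9 to 7216 CPM in healthy dogs (median 676) and from 126 to 8771 CPM in OS dogs (median 976) (log2 fold change 0.28 ± 0.93 (SE), unadjusted p = 0.764). IL1B ranged from 0.258 to 677 CPM in healthy dogs (median 133) and from 33.8 to 1231 CPM in OS dogs (median 284) (1.14 ± 0.89 (SE), unadjusted p = 0.214). CCL4 ranged from 0 to 2229.5 CPM in healthy dogs (median 60.6) and from 3.69 to 1809 CPM in OS dogs (median 202) (0.15 ± 1.23 (SE)). For these genes each group contained dogs with very low and very high values.

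The same dogs were high or low in most of these genes. OS dog 1 was among the 5 highest for 9 of the 10 genes, healthy dog 1 for 8, OS dog 2 for 7 and OS dog 3 for 6. OS dog 8 was among the 5 lowest for all 10, healthy dogs 4 and 6 for 7 and healthy dog 3 for 6. The summed level of the 10 genes ran from 200.7 CPM in healthy dog 6 to 14004 CPM in OS dog 2. Healthy dog 6 was also the highest in MT2A and MT1E, and OS dog 8 was the highest in HDAC9 (656 CPM). In the IL-1 and NF-kB list 1 gene of 29 was higher and 1 lower in OS at an unadjusted p under 0.05, the receptor IL1R1 (0.45 ± 0.18 (SE)) and the cytokine IL18 (-0.79 ± 0.28 (SE)), with a median of 0.37. That median turned to -0.25 with only the OS dogs under 8 years. IL18 ranged from 22.8 to 109.9 CPM in healthy dogs (median 34.1) and from 12.5 to 50 CPM in OS dogs (median 25.7), against 689 CPM in neutrophil-like barcodes.

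**Figure D5:**
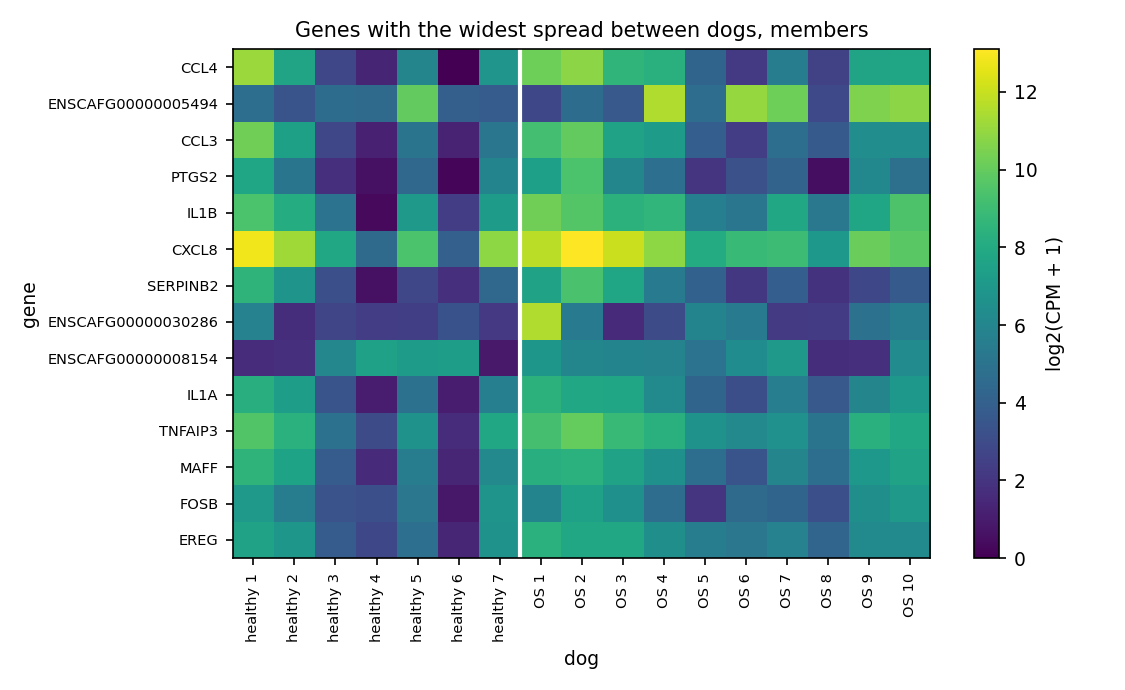
Levels in members of the 14 genes with the largest spread between dogs, as log2(CPM + 1) on a color scale, with 1 column per dog (7 healthy left of the line, 10 OS right of it). Healthy dog 1 and OS dogs 1 and 2 are high in most of these genes, and healthy dogs 3, 4 and 6 and OS dog 8 are low in most of these genes.

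Whether OS acted differently in members and in CD4-expressing monocytes was tested as an interaction with the dog as a block, in healthy dogs 1, 2 and 6 and OS dogs 5, 6 and 10. Of 12009 genes, 3 were called by edgeR (0.025%), ACOD1, MXD1 and THBS1, and 468 had an unadjusted p under 0.05. With values averaged over the 3 dogs of each group, ACOD1, which makes itaconate in activated macrophages, averaged 95.8 CPM in healthy and 50.6 CPM in OS dogs in members, and 254 and 50.2 CPM in CD4-expressing monocytes (interaction 1.75 on the log2 scale, adjusted p = 0.000114). MXD1, which opposes MYC, averaged 301 and 204 CPM in members and 774 and 324 CPM in CD4-expressing monocytes (0.87, adjusted p = 0.00342). THBS1 averaged 26.1 and 39.2 CPM in members and 168 and 80.9 CPM in CD4-expressing monocytes (1.49, adjusted p = 0.00342). The ACOD1 means were highest through healthy dog 1, at 237 CPM in members and 566 CPM in CD4-expressing monocytes. Over all 17 dogs ACOD1 in members went the other way, with medians of 22.8 CPM in healthy and 63.5 CPM in OS dogs. Its log2 fold change there was 0.69 ± 0.65 (SE), with an unadjusted p of 0.301 in edgeR.

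The difference between members and CD4-expressing monocytes in ACOD1 was -1.25, -2.11 and -0.56 in healthy dogs 1, 2 and 6 and 0.41, 0.12 and -0.09 in OS dogs 5, 6 and 10, on the log2(CPM + 1) scale. For THBS1 it was -0.83, -3.33 and -2.25 in healthy and -1.04, -1.42 and -0.75 in OS dogs, and for MXD1 -1.40, -1.24 and -1.67 and -0.13, -1.04 and -0.89. In these 3 genes the CD4-expressing monocytes held the higher level in healthy dogs and the gap to the members was on average narrower in OS dogs. For THBS1 the values of healthy and OS dogs overlapped, and all calls rested on few dogs. Without OS dog 5 there were 0 calls (389 of 11505 genes at an unadjusted p under 0.05), as without OS dog 10 (391 of 11830). By the ages in the study, OS dogs 5 and 10 were older than healthy dogs 1, 2 and 6, and OS dog 6 was younger. OS and age therefore cannot be told apart in these calls. Without healthy dog 2 or OS dog 6 there were 3 calls, and without healthy dog 1 or 6 there were 6 and 5. With CD4-expressing monocytes of any S100A12, a choice made after seeing the data, 7 healthy and 9 OS dogs gave 2 calls of 13262 genes, STXBP6 (interaction -0.89) and MT1E (1.93), both at an adjusted p of 0.00219 in edgeR. The differences between classes overlapped between the groups, at 0.54 to 4.19 in healthy and 1.58 to 4.50 in OS dogs for MT1E and at 0.63 to 2.04 and -0.66 to 1.5 for STXBP6. This fit was not repeated without single dogs, and MT1E was high in healthy dog 6. There THBS1 kept its direction (0.75, adjusted p = 0.0449), and ACOD1 (0.42) and MXD1 (0.26) had adjusted p of 1.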

How the data were processed

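Leukocytes from the blood of 7 healthy dogs and 10 dogs with OS were profiled as single cells, with 1 library per dog. The authors made the deposited UMI counts per gene and barcode with Cell Ranger 7.0.0 against the CanFam3.1 genome and filtered Ensembl gene models, and Seurat is also named in the submitters' processing notes. The authors ran the alignment in 2 modes, counting or leaving out introns, and the mode behind these matrices is not given in the sources used here. No cell annotation was used, so the cell class was rebuilt from counts and can differ from that of the study.

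The limits on genes, UMIs and mitochondrial share follow the study's methods, and the matrices held 20257 genes. The members and gene lists were chosen with earlier results of these data known. For each dog with at least 25 members, counts were summed over members, and genes with at least 10 counts in all were compared by edgeR (4.0.16) with TMM scaling, a quasi-likelihood test and Benjamini-Hochberg adjustment over all genes tested. A gene was called at an adjusted p under 0.01 and an absolute log2 fold change over 0.58, the fold limit of the study. DESeq2 (1.42.0, R 4.3.3) was an alternative, as were other scaling, count filters, cell limits, LYZ and CD4 thresholds, age, dogs left out, a replicate block and removal of cells scored high by Scrublet in scanpy 1.11.5 (expecting 0.8% doublets per 1000 barcodes), which were otherwise kept. To compare detection at equal depth, cells were thinned to 2000 UMIs, or 4000 for CD4. Shares were compared between dogs by an exact two-sided rank-sum test (scipy 1.17.1), and Clopper-Pearson intervals cover counting error only. Ages were taken from the study by dog number, on the assumption that the labels use the same numbers. P-values of shares came from relabelling whole dogs, so they rest on variation between dogs. Those of edgeR also use a dispersion estimated across genes. With 3 dogs a group, an interaction can therefore be called although the values of single dogs overlap, as in THBS1. Components were computed from log counts in numpy 2.4.6, and figures drawn in matplotlib 3.10.9.

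Named genes were the label's markers and the study's list, the 20 most abundant genes, the 10 smallest p in each direction at 10 CPM or more, the list members with an unadjusted p under 0.05 or among the 3 most abundant (a selection of these is printed), the 10 most variable genes between dogs at 50 CPM or more, the leading genes against CD4-expressing monocytes at 20 CPM or more and of the first component, and the genes called for the interaction. Genes of the second component, PIK3R6 and other genes that fall outside this rule were named after their values were seen. Sequences were not used here.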

Additional observations from a re-analysis of the deposited data

Results flagged for a closer look

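Within the 7 healthy or the 10 OS dogs, 22 of 86 group values had a highest or lowest dog whose distance to the nearest other dog was large for the range of its group (Dixon's criterion at the 95% level). Chance would flag about 1 in 20 groups, or 4.3 of 86, only for normal values of genes not chosen for their spread. Here CPM were used without a log, and CCL4, CCL3, PTGS2, IL1B and CXCL8 had been named for their spread. Many of these genes also vary together, so the flags are not independent. The 22 flags can therefore not be read as an excess over 4.3. Their cause was not tested.

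Healthy dog 1 stood apart in inflammatory and antigen-presenting genes, with 7216 CPM of CXCL8, 677 CPM of IL1B, 2229.5 CPM of CCL4, 1216 CPM of CCL3, 206 CPM of PTGS2, 1994 CPM of CD83 and 6336 CPM of CD74. For CCL4 the next healthy dog was at 201 CPM and for CCL3 at 172 CPM. OS dog 2 was the highest of its group in CXCL8 (8771 CPM) and PTGS2 (674 CPM). The next OS dogs were OS dog 3 at 4243 CPM of CXCL8 and OS dog 1 at 169 CPM of PTGS2.

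Metallothioneins were set apart in healthy dog 6, with 2263 CPM of MT2A and 388 CPM of MT1E. Among OS dogs, OS dog 8 was highest in MT2A (702 CPM) and OS dog 4 in MT1E (66.3 CPM). OS dog 8 also held 656 CPM of HDAC9, against 255 CPM in the next OS dog.

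Healthy dog 2 was the lowest healthy dog for BPI (521 CPM, the next at 1020.5 CPM) and the highest for LRMDA (2989 CPM) and BANK1 (948 CPM). FN1 was highest in healthy dog 5 (929 CPM, the next healthy dog at 689 CPM). Healthy dog 7, the neutrophil-rich library, was lowest in ADGRG6 (18.4 CPM) and highest in PER1 (49.9 CPM) among healthy dogs. OS dog 4 was the highest OS dog for RETN (569 CPM) and OS dog 3 for CPT1A (131 CPM).

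The difference between OS and healthy dogs was not the same in members and in CD4-expressing monocytes with S100A12 at most 2 for 3 genes. These were ACOD1 (1.75 on the log2 scale), THBS1 (1.49) and MXD1 (0.87), by the interaction test over 3 healthy and 3 OS dogs. Without OS dog 5 or OS dog 10, both older than the 3 healthy dogs by the ages in the study, there were 0 calls. With CD4-expressing monocytes of any S100A12, over 7 healthy and 9 OS dogs, none of the 3 was called, at an adjusted p of 1 for ACOD1 and MXD1 and 0.0449 for THBS1 in edgeR.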

How the results depend on the processing

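Between OS and healthy dogs 0 genes were called under each of the 32 other settings for members, by edgeR or DESeq2. The number of genes tested differed between settings. At an unadjusted p under 0.05 there were 456 of 12398 genes with the 5 OS dogs under 8 years. A filter on counts per dog gave 568 of 9153 and at least 1 count gave 1039 of 16080, against 812 of 12964. Over those settings 2257 of 2258 fold changes of 71 named genes kept their direction, and HBM turned to -0.12 under DESeq2 from 4.04. The median of the IL-1 and NF-kB list turned to -0.25 with OS dogs under 8 years. The median shift of the fold changes over all genes was 0.0082 with DESeq2 size factors in edgeR and 0.0104 in DESeq2. For the difference in OS effect between classes, leaving out 1 dog gave 0 (without OS dog 5 or 10) to 6 genes (without healthy dog 1), against 3, and the class with at least 2 UMIs of CD4 could not be fitted, with too few dogs of 25 cells. No share difference passed p under 0.05 under any setting run. The replicate numbers name different dogs: the deviations of same-numbered dogs correlated at -0.435 to 0.587 over 7 pairs, 3 above 0.1, and 0 dogs correlated best with their own number. With a replicate block 0 genes were called (642 at an unadjusted p under 0.05). For shares, the 7 pairs of same-numbered dogs were compared by an exact test that flips the signs of their differences, without OS dogs 8 to 10. The share of members differed by 1.82 points (exact sign-flip p = 0.516) and that without CD4 by 0.701 points (exact sign-flip p = 0.750). Depth limits the count of CD4 to cells in which it was captured, and 3 dogs a group limit the interaction. The missing upper limit on UMIs and the wider CD4-expressing class were chosen after seeing the data.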

Other observations

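CD4-expressing monocytes of any S100A12, 1626 cells with a UMI of CD4, were also compared between the groups over all 17 dogs, including OS dog 4 with 23 such cells, under the minimum of 25 used elsewhere. Of 10779 genes, 0 were called in OS against healthy dogs by edgeR, 631 had an unadjusted p under 0.05 (340 higher and 291 lower in OS), and the smallest adjusted p was 0.342.

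Among members, the second axis, with HDAC9 at one end and PLBD1 at the other, moved with the mitochondrial share of a cell, which was higher toward the HDAC9 end. The correlation within a dog was 0.215 to 0.455 (median 0.358) over 66 to 975 cells of 17 dogs, and for the first axis it was -0.373 to 0.184. These cells share their library and depth, and the part of cell quality in the axis was not tested.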
